A study of Mus musculus with 9 samples.

Results

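The unfolded protein response and the integrated stress response were described here through 40 genes in mouse bone marrow cells selected for CD49b. Such cells include basophils, rare blood granulocytes of allergic inflammation. Markers of monocytes and macrophages were also abundant, so the levels below are those of a mixed preparation. The genes were chosen by a rule on symbols and roles, out of 35673 symbols in the count table. The rule itself uses no measured value, but members and lists were chosen with earlier results of these data known. They comprise 14 chaperones and folding enzymes of the endoplasmic reticulum (ER), 7 genes of ER-associated degradation, the transcription factor Xbp1, 4 stress sensors, and 14 genes that act with or downstream of the transcription factor ATF4. The first 3 of these groups, 22 genes, are called the ATF6/XBP1 arm below, the last 14 genes are called the ATF4 arm, and the sensors stand in neither. Of the 40 genes, 39 had enough reads to be tested; Derl3, a degradation factor of secretory cells, had 1 to 13 counts per library and was not tested.

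All cells came from bone marrow of wild-type C57BL/6J mice, grown for 7 days with 0.3 ng/mL interleukin-3 (IL-3) and taken by their surface CD49b with magnetic particles. Samples of 10000 cells were then kept for 4 hours in one of 3 ways, and each way is represented by 3 libraries. The resting group was given PBS and the solvent DMSO. The stimulated group was given DMSO, 10 ng/mL of IL-3 and 10 ng/mL of IL-33, an alarmin. The difamilast group had both cytokines at those doses and, at 3 µM, the drug difamilast, which blocks phosphodiesterase 4 and so the breakdown of cyclic AMP. No group with difamilast alone was analysed here. Whether the 3 libraries of a group came from separate mice or cultures is not given in the sources used here, so p-values measure the spread between these libraries, which may be technical.

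When unfolded proteins build up in the ER, the membrane sensors IRE1 (Ern1), ATF6 and PERK (Eif2ak3) are released from the chaperone BiP (Hspa5) and become active. IRE1 splices Xbp1 mRNA and ATF6 is cut to free its transcription factor part, and the resulting factors raise chaperone and degradation genes through ER stress elements in their promoters. PERK and GCN2 (Eif2ak4), a sensor of amino acid shortage, phosphorylate the initiation factor eIF2, which slows translation in general but favours translation of ATF4, a factor that raises genes of amino acid supply and feedback. Splicing, cleavage, phosphorylation and translation are not seen in gene counts, which measure mRNA only.

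Promoter sequences show which of the genes carry the textbook elements of each arm. RefSeq windows of GRCm38.p6, from 250 bases before to 50 bases after the transcript start, were found for 36 of the 40 genes; Manf, Hyou1, Derl1 and Atf6 had none. Both strands were searched for 5 motifs. The ER stress element was spelled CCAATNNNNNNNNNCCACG and occurred in 9 of 19 genes of the ATF6/XBP1 arm (47.4%), in 0 of 14 genes of the ATF4 arm, and in 37 of 27025 genes in all (0.137%); 0.119% of all 32851 windows held it. ER stress element II, ATTGGNCCACG, occurred in 2 of 19 ATF6/XBP1 genes, Dnajb11 and Herpud1, against 0.0444% of all genes. The amino acid response element that ATF4 binds with C/EBP partners, TGATGNAA, occurred in 4 of 14 ATF4 arm genes (28.6%) and in 1 of 19 ATF6/XBP1 genes, Herpud1, against 4.51% of all genes. The cAMP response element, TGACGTCA, occurred in Ppp1r15a alone among the members, against 2.03% of all genes. The unfolded protein response element, TGACGTGG, occurred in none of the members' windows, against 0.714% of all genes. The last 2 motifs share the letters TGACGT, and the end of TGACGTGG is the reverse complement of the CCACG of the ER stress elements. A match describes the letters of the window and is not a measured binding site. Members and motifs were both taken from textbook knowledge of the same pathways, so shares above those of all genes are no separate evidence.

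The sites below are those of members whose fold changes are given one by one in the comparisons that follow; those of Canx, Dnajb11 and Dnajc3, given only within a range, and of the untested Derl3 are not shown. They are read 5′ to 3′ along the strand that spells the motif, with 5 bases on each side. Capitals mark the fixed letters of the motif and, in the amino acid response element, also its free sixth letter, and coordinates are those of the motif without its flanks. ER stress elements come first, with Hsp90b1 holding a pair of them.
Hspa5, chr2:34772025-34772043: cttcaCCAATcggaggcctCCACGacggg
Calr, chr8:84847075-84847093: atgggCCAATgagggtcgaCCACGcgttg
Syvn1, chr19:6046532-6046550: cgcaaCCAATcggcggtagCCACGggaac
Hsp90b1, chr10:86705533-86705551: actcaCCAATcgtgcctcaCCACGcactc
Hsp90b1, chr10:86705638-86705656: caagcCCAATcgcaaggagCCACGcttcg
Pdia6, chr12:17266491-17266509: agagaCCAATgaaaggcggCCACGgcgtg
Creld2, chr15:88819520-88819538: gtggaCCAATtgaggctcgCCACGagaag
The shorter element II of Herpud1, with a single base inside it, was read as follows.
Herpud1, chr8:94386377-94386387: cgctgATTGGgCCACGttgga
The amino acid response elements, and the cAMP response element of Ppp1r15a as the last line, were these.
Atf3, chr1:191183436-191183443: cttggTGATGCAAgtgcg
Trib3, chr2:152344039-152344046: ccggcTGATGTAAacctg
Chac1, chr2:119351049-119351056: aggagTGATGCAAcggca
Asns, chr6:7693225-7693232: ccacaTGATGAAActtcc
Herpud1, chr8:94386317-94386324: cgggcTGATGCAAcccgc
Ppp1r15a, chr7:45526273-45526280: tccggTGACGTCAgcaca

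The 250 bases before the start are shown for Herpud1 on the plus strand, the member whose window held motifs of both arms. Capitals mark the motif letters. The amino acid response element lies on the other strand and therefore reads as its reverse complement.
Herpud1, chr8:94386179-94386428: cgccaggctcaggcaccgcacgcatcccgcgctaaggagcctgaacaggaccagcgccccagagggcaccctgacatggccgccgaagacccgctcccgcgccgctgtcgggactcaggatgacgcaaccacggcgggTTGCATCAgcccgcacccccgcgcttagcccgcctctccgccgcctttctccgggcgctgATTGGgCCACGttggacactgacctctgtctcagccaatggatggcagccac

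**Figure D1:**
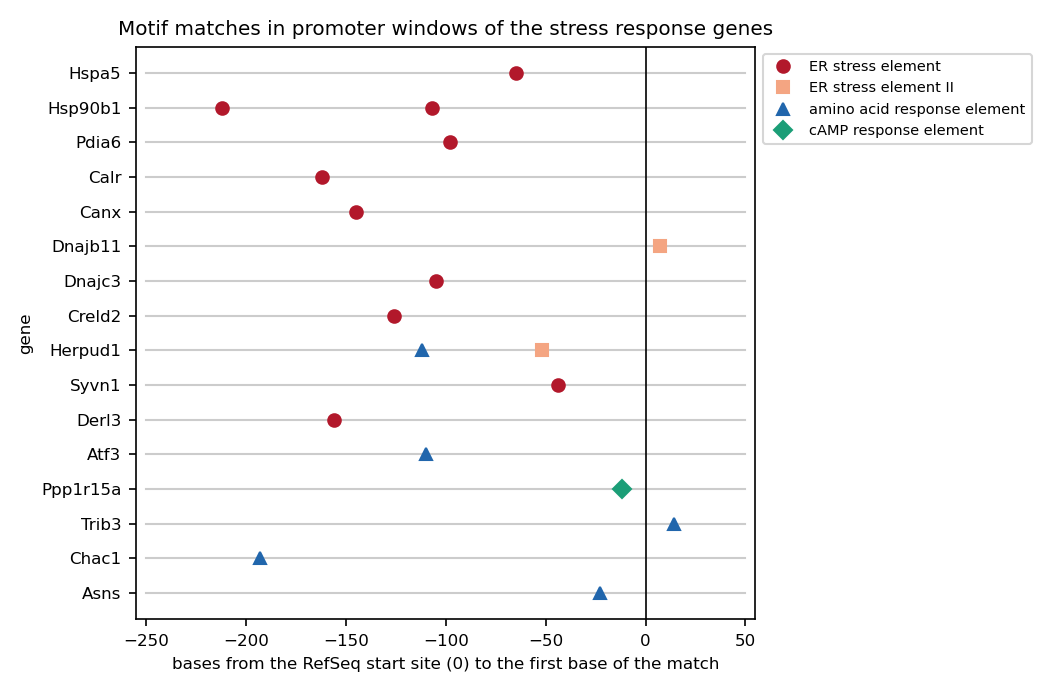
Positions of motif matches in the promoter windows of the 16 members that held any; the horizontal axis gives the distance in bases from the RefSeq start site to the first base of the match, and each grey line is a window. The ER stress elements lie in ATF6/XBP1 arm genes, between 212 and 44 bases before the start, and element II lies 52 bases before the start in Herpud1 and at base 8 of the transcript in Dnajb11.

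Library totals ran from 6261446 counts in resting replicate 3 to 38098584 in stimulated replicate 2. Before any scaling, the 40 genes together took 0.545%, 0.5035% and 0.536% of the resting and 0.512%, 0.505% and 0.508% of the stimulated libraries. In the difamilast libraries they took 0.594%, 0.587% and 0.485%. The stimulated shares thus lay within the resting range. Libraries of a group differed by more than counting noise, and no molecular identifiers are mentioned, so counting alone understates the error. Chi-square per degree of freedom was 38.5 and 22.1 for resting replicate 1 with 2 and 3, against 5.51 for 2 with 3. It was 48.7 and 33.3 for difamilast replicate 3 with 1 and 2, against 7.33 for 1 with 2. Between stimulated libraries it was 5.05, 4.54 and 15.1. Levels are given as CPM, counts scaled to a common effective total, which is the library total times a TMM factor for composition. These factors were 1.32, 1.23 and 1.26 for resting and 0.892, 0.885 and 0.871 for stimulated replicates 1 to 3. For difamilast replicates they were 0.916, 0.911 and 0.851. A gene with equal shares of the library totals thus has higher CPM in stimulated and difamilast than in resting libraries. No fit on library totals alone was run. Basophil markers summed to 3862 to 4870 CPM in resting, 9003 to 9671 in stimulated and 8332 to 8962 in difamilast libraries. Of the 10 markers, 8 were higher and 1 lower in stimulated cells. Monocyte and macrophage markers summed to 5788 to 7155, 4441 to 4698 and 4291 to 4639 CPM in the same order, and 7 of 9 were lower in stimulated cells. Mast cell markers, 5 of 6 listed being in the count table, summed to 467 to 774, 739 to 809 and 697 to 720 CPM in that order. Plasmacytoid dendritic cell markers summed to 90.3 to 119, 161.5 to 193 and 108 to 170 CPM, and neutrophil markers to between 63.8 and 121 CPM. Markers of plasma and B cells, which are rich in ER, summed to at most 69.9 CPM. No marker in the count table was at 0 in all libraries. With difamilast the basophil marker Ms4a2 was lower, at a mean of 103 against 181 CPM (log2 fold change -0.81, edgeR adjusted p = 0.000108). It was the only listed marker called in that comparison. Of all tested genes 15.3% were higher and 16.4% lower with stimulation, and 2.21% and 1.24% with difamilast. The part of these marker shifts in the results below was not tested, and in bulk RNA fewer cells of a type and less RNA per cell cannot be told apart.

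Stimulation with IL-3 and IL-33 was accompanied by higher mRNA of some ER chaperones and degradation genes, with no ATF6/XBP1 gene called lower, while genes of the ATF4 arm were called in both directions. Among the 39 tested genes, 14 rose and 4 fell, so 46.2% were called at an adjusted p under 0.05, against 31.7% of all 21341 tested genes. The share that rose was 35.9% against 15.3% of all genes, and the share that fell was 10.3% against 16.4%. Since 34 of the tested members averaged at least 10 CPM, the 8867 genes of that level are the closer background: 21.5% of them rose and 24.3% fell. In the ATF6/XBP1 arm 38.1% of tested genes rose and 0 fell, and in the ATF4 arm 28.6% rose and 14.3% fell, so that calls in both directions are also what the genes of that level show. The median log2 fold change was 0.25 over the members and 0.06 over all tested genes. Adjusted p-values throughout come from edgeR (quasi-likelihood test) and are Benjamini-Hochberg values over all tested genes. The stimulated and resting libraries did not overlap for 22 members, of which 18 were the called ones. The same count over all tested genes was not made, so the 22 have no background to be read against.

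**Figure D2:**
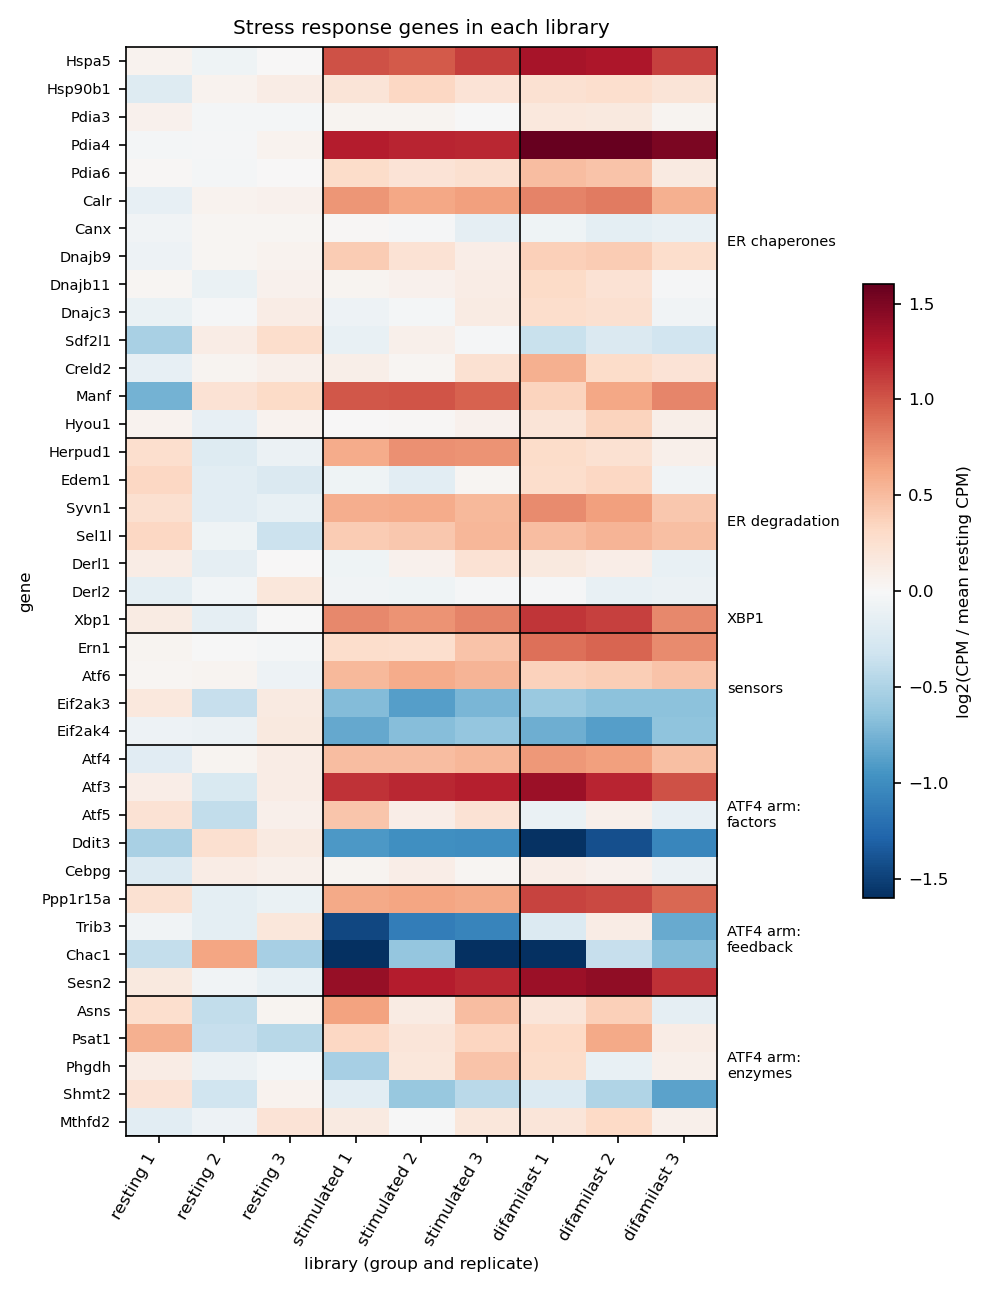
Level of each tested member in each of the 9 libraries, as log2 of CPM over the resting mean (colour, with values beyond either end drawn at the end colour), genes in the order of their roles. Hspa5, Pdia4, Calr, Manf, Xbp1, Atf3 and Sesn2 are red in all stimulated and difamilast libraries, and Eif2ak3, Eif2ak4 and Ddit3 are blue in all of them.

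Of the 14 chaperones and folding enzymes, 4 rose with stimulation, 0 fell and 10 were not called. Hspa5 encodes BiP, the main HSP70 chaperone of the ER (chr2:34771970-34777547, GRCm38), and its level was 502, 462 and 485 CPM in resting replicates 1 to 3 and 978, 956 and 1043 CPM in stimulated replicates. Every stimulated library lay far above every resting library, and the spread within each group was small beside the gap. The log2 fold change was 1.04 (adjusted p = 1.07e-06, SE 0.10), a 2.05-fold higher level. Pdia4, a disulfide isomerase of the ER (chr6:47796141-47813430), stood at 91.3, 92.2 and 97 CPM in resting and 224, 218 and 215 CPM in stimulated libraries. Its groups were again well apart, and its log2 fold change, 1.23 (adjusted p = 1.59e-07, SE 0.10), was the largest of the ATF6/XBP1 arm.

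Calr, the calcium-binding lectin chaperone calreticulin (chr8:84841850-84846934), was at 404, 461 and 465 CPM in resting and 720.3, 682 and 697 CPM in stimulated libraries. The lowest stimulated library exceeded the highest resting one, and the log2 fold change was 0.66 (adjusted p = 0.000161, SE 0.10). Manf, a small secreted protein of the ER (chr9:106838312-106891979), was at 50.8, 100.3 and 106 CPM in resting and 170.3, 172 and 165 CPM in stimulated libraries. Its stimulated libraries were close together, while resting replicate 1 stood well below the other resting libraries. The log2 fold change of Manf was 0.99 (adjusted p = 0.00163, SE 0.20), and without resting replicate 1 it was 0.68, with adjusted p = 9.91e-05 (range over all alternatives 7.55e-12 to 0.00938). Manf shares exonic sequence with Rbm15b on the same strand, whose mean level was 37.4 CPM in resting and 38.2 CPM in stimulated libraries.

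The remaining chaperones did not pass the test. Hsp90b1, the HSP90 of the ER also called GRP94, was at 353, 423 and 443 CPM in resting and 471, 512 and 473 CPM in stimulated libraries. These ranges did not overlap, but the difference was small, with a log2 fold change of 0.26 (adjusted p = 0.0731, SE 0.10). Pdia6, another disulfide isomerase, and Dnajb9, a BiP cochaperone and textbook XBP1 target, likewise had groups that did not overlap, with log2 fold changes of 0.26 (adjusted p = 0.0827) and 0.25 (adjusted p = 0.0956). Hsp90b1 was called with limma-voom (adjusted p = 0.0427) and after thinning (0.0397) among values from 0.0397 to 0.233. Pdia6 was called with the length trend removed (0.0363) and without difamilast replicate 3 (0.035) among values from 0.035 to 0.297. The other 7, the isomerase Pdia3, the lectin chaperone Canx, the cochaperones Dnajb11, Dnajc3 and Sdf2l1, Creld2 and the BiP exchange factor Hyou1, had log2 fold changes from -0.046 to 0.13. Hyou1 was at 59.3, 52 and 59.3 CPM in resting and 57.2, 57.7 and 59.5 CPM in stimulated libraries, ranges that overlapped, beside the 2.05-fold difference of its partner Hspa5.

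ER-associated degradation returns misfolded proteins to the cytosol for the proteasome, and 3 of its 6 tested members rose while 0 fell. Herpud1, a ubiquitin-like membrane protein that organises the degradation complex (chr8:94386438-94395377), was at 84.6, 60.8 and 65.7 CPM in resting and 106, 117 and 116 CPM in stimulated libraries. All stimulated libraries were above all resting ones, with a log2 fold change of 0.68 (adjusted p = 0.000669, SE 0.13). Syvn1, the ubiquitin ligase HRD1, was at 61.1, 45.8 and 47.1 CPM in resting and 77.1, 77.8 and 73.8 CPM in stimulated libraries. The groups stood apart, with a log2 fold change of 0.57 (adjusted p = 0.00325, SE 0.13). Sel1l, the adaptor that holds HRD1 in its complex, was at 108, 81.4 and 67.1 CPM in resting and 113, 115 and 124 CPM in stimulated libraries. Its resting libraries were widely spread and the highest came close to the stimulated group, and the log2 fold change was 0.45 (adjusted p = 0.0208, SE 0.14). The call of Sel1l was lost without resting replicate 2 (adjusted p = 0.0918), resting replicate 3 (0.132, log2 fold change 0.28), stimulated replicate 1 (0.0689) or stimulated replicate 3 (0.0757), within a range of 5.99e-05 to 0.132 over the alternatives. Edem1, a mannosidase-like protein that delivers glycoproteins for degradation, and the channel-forming Derl1 and Derl2 had log2 fold changes of -0.064, 0.083 and -0.044, with overlapping groups.

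Xbp1, whose product is a main activator of these degradation genes (chr11:5520659-5525893), was at 216, 180.1 and 198 CPM in resting and 337, 325 and 343 CPM in stimulated libraries. The stimulated libraries were tightly grouped above the resting ones, and the log2 fold change was 0.76 (adjusted p = 0.00012, SE 0.11). Counts per gene do not separate spliced from unspliced Xbp1.

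The 4 sensors divided evenly: 2 rose and 2 fell with stimulation. Ern1, which encodes IRE1 (chr11:106394650-106487852), was at 95, 91.8 and 90.5 CPM in resting and 113, 111 and 127 CPM in stimulated libraries. The groups did not overlap, although the step was modest, with a log2 fold change of 0.34 (adjusted p = 0.0164, SE 0.10). That call was lost with no filter on low counts (adjusted p = 0.0736) and without resting replicate 2 (0.068), resting replicate 3 (0.0713), stimulated replicate 1 (0.0617) or stimulated replicate 3 (0.09), in a range from 0.00986 to 0.09. Atf6 (chr1:170704674-170867771) was at 64.7, 65.7 and 60.03 CPM in resting and 90.6, 96 and 92.9 CPM in stimulated libraries. Its groups stood clearly apart, with a log2 fold change of 0.55 (adjusted p = 0.000435, SE 0.10).

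The 2 kinases of eIF2 moved the other way. Eif2ak3, which encodes PERK, was at 16.7, 11.5 and 16.5 CPM in resting and 9.23, 8.07 and 8.95 CPM in stimulated libraries. Resting replicate 2 was the lowest of its group and still above every stimulated library, and the log2 fold change was -0.76 (adjusted p = 0.00325, SE 0.17). Eif2ak4, which encodes GCN2, was at 12.2, 12.2 and 14.4 CPM in resting and 7.33, 8.07 and 8.4 CPM in stimulated libraries. All stimulated libraries were lower than all resting ones, with a log2 fold change of -0.69 (adjusted p = 0.00381, SE 0.16).

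Among the 5 transcription factors of the ATF4 arm, 2 rose, 1 fell and 2 were not called. Atf4 (chr15:80255184-80257541) was at 169, 197 and 206 CPM in resting and 269, 268 and 276 CPM in stimulated libraries. The 3 stimulated libraries were nearly equal and above the resting group, and the log2 fold change was 0.51 (adjusted p = 0.00165, SE 0.10). Atf3, an immediate early factor that is also induced by many other signals (chr1:191170296-191218039), was at 72.6, 56.9 and 73.1 CPM in resting and 150, 156 and 159 CPM in stimulated libraries. Its level was about 2.30-fold higher with no overlap, a log2 fold change of 1.20 (adjusted p = 2.14e-06, SE 0.12).

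Ddit3 encodes CHOP, the factor most often linked to cell death under lasting ER stress (chr10:127290774-127296288), and it fell. Its level was 62.2, 106 and 98.4 CPM in resting and 46.9, 45 and 44.6 CPM in stimulated libraries. The stimulated libraries were alike, while resting replicate 1 was far below the other resting libraries yet above all stimulated ones. The log2 fold change was -0.97 (adjusted p = 0.000666, SE 0.18). The longest Ddit3 transcript has 890 bases, and transcripts of 750 to 1000 bases deviated by a median of -0.47 on the log2 scale in resting replicate 1. With a trend on transcript length removed from each library the log2 fold change was -1.12. Ddit3 shares exonic sequence with Mars on the opposite strand, listed as Mars1 at a mean of 17.0 CPM in resting and 11.8 CPM in stimulated libraries, and reads of the pair may have been mixed, since the use of strand in counting is not given. Atf5 and Cebpg, both basic leucine zipper factors, had log2 fold changes of 0.27 (adjusted p = 0.29) and 0.062 (adjusted p = 0.722) with overlapping groups. Atf5 overlaps Il4i1 on the opposite strand. The mean level of Il4i1 was 24.9 CPM in resting, 94.7 CPM in stimulated and 45.4 CPM in difamilast libraries. Whether reads of Il4i1 entered the counts of Atf5 was not tested.

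The 4 feedback genes also went in both directions. Ppp1r15a, the GADD34 subunit that directs dephosphorylation of eIF2, was at 118, 89.1 and 92.2 CPM in resting and 151, 155 and 152 CPM in stimulated libraries. The groups stood apart, with a log2 fold change of 0.61 (adjusted p = 0.000725, SE 0.11). Sesn2, a leucine-binding inhibitor of mTORC1 signalling, was at 38.5, 33.2 and 31.8 CPM in resting and 90.4, 82.1 and 79.5 CPM in stimulated libraries. It had the largest rise of all members, with a log2 fold change of 1.28 (adjusted p = 6.72e-07, SE 0.12).

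Trib3, a pseudokinase that restrains ATF4 and CHOP, fell. It was at 6.78, 6.33 and 7.98 CPM in resting and 2.57, 3.27 and 3.37 CPM in stimulated libraries, low levels throughout. Every stimulated library was below every resting one, and the log2 fold change was -1.15 (adjusted p = 0.00189, SE 0.24). Chac1, an enzyme that degrades glutathione, was near the limit of measurement at 1.12, 2.26 and 1.01 CPM in resting and 0.381, 0.95 and 0.422 CPM in stimulated libraries. These ranges did not overlap, but the error was large, with a log2 fold change of -1.28 (adjusted p = 0.0727, SE 0.52). Chac1 was called lower with no filter on low counts (adjusted p = 0.0209), without resting replicate 1 (0.0498), without stimulated replicate 2 (0.04) and without difamilast replicate 1 (0.0477), in a range up to 0.33.

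None of the 5 enzymes of amino acid and one-carbon metabolism was called, although they are textbook targets of ATF4. Asns, which makes asparagine, was at 6.99, 4.4 and 5.95 CPM in resting and 9.04, 6.32 and 8.14 CPM in stimulated libraries. The groups overlapped, and the log2 fold change was 0.43 (adjusted p = 0.163, SE 0.22). Psat1 and Phgdh of serine synthesis had log2 fold changes of 0.27 and 0.15, and Shmt2 and Mthfd2 of the mitochondrial folate cycle had -0.40 and 0.12, all with overlapping groups. Psat1 was called higher without resting replicate 1 (log2 fold change 0.65, adjusted p = 0.0111, range 0.0111 to 0.893), the resting library in which it was highest. Shmt2 was called lower without resting replicate 2 (-0.59, adjusted p = 0.0468, range 0.0468 to 0.4).

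**Figure D3:**
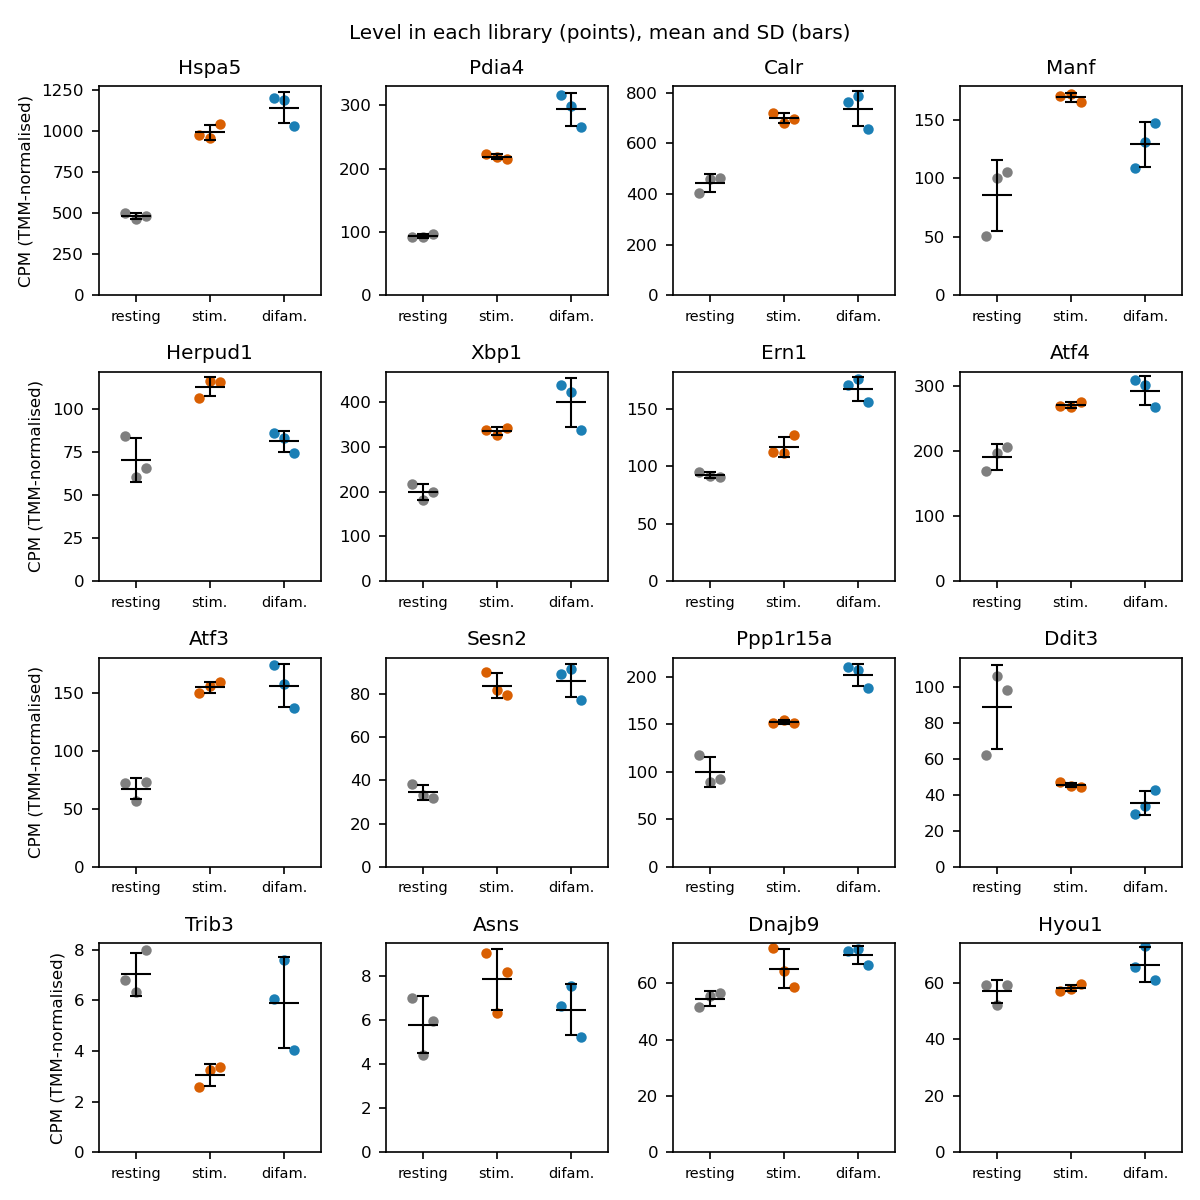
Levels of 16 members in CPM (vertical axes start at 0), with 1 point per library, a horizontal bar at the group mean and error bars of 1 SD, for resting, stimulated (stim.) and difamilast (difam.) libraries. Hspa5, Pdia4 and Sesn2 show groups far apart between resting and stimulated cells, while Asns and Hyou1 overlap.

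Scaled by the length of the longest transcript, Calr had the highest mean level of the members in resting cells, 203 CPM per kb, followed by Hsp90b1 at 144, Hspa5 at 132 and Pdia3 at 128. In stimulated cells the order at the top was Calr at 320.3 CPM per kb, Hspa5 at 270.2 and Hsp90b1 at 172. The sensors were lower, from 2.44 CPM per kb for Eif2ak4 to 13.3 for Ern1 in resting cells. Among the ATF4 arm, Atf4 stood at 111 and Ddit3 at 99.8 CPM per kb in resting cells, and at 157 and 51.1 in stimulated cells. The enzymes were all under 7 CPM per kb in resting cells, the highest being Mthfd2 at 6.75.

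The calls were also counted by promoter motif, as a description. Of the 10 tested ATF6/XBP1 genes with either ER stress element, 4 rose with stimulation (Hspa5, Calr, Herpud1 and Syvn1) and the median log2 fold change was 0.26. Of the 8 with a window and neither element, 3 rose (Pdia4, Sel1l and Xbp1) and the median was 0.14. A further 38 genes of the promoter table held an element, 19 of them were tested, and 2 rose and 3 fell, with a median log2 fold change of -0.04. In the ATF4 arm, the 4 genes with an amino acid response element held Atf3, which rose, Trib3, which fell, and Chac1 and Asns, which were not called.

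The arms are set side by side for stimulation, and the difference between them was not tested. In the ATF6/XBP1 arm 8 of 21 tested genes rose and 0 fell, with log2 fold changes from -0.06 to 1.23. In the ATF4 arm 4 of 14 rose and 2 fell, over a wider range from -1.28 to 1.28. The SD of log2 fold changes across genes was 0.402 in the ATF6/XBP1 arm, 0.787 in the ATF4 arm and 0.875 over all tested genes. The medians of the arms, 0.25 and 0.21, lay close together and depended on the processing, while the mean was 0.35 in the ATF6/XBP1 arm and 0.08 in the ATF4 arm. Without resting replicate 1 the medians were 0.13 and 0.29, and without stimulated replicate 1 the ATF6/XBP1 median was 0.13, and without resting replicate 2 the ATF4 median was 0.05, so the order of the medians depended on single libraries.

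The average log2 CPM of the ATF6/XBP1 arm, set to the resting mean, was -0.01, -0.03 and 0.04 in the resting libraries, 0.35, 0.35 and 0.38 in the stimulated libraries, and 0.47, 0.46 and 0.29 in the difamilast libraries. All stimulated and difamilast libraries were above all resting ones, and difamilast replicate 3 lay below the stimulated group. For the ATF4 arm the same average was 0.05, -0.06 and 0.01 in resting, 0.06, 0.10 and 0.11 in stimulated, and 0.14, 0.28 and 0.04 in difamilast libraries. Resting and stimulated libraries were close together here, although each stimulated library was above each resting one. The average mixes genes that rose with genes that fell. Difamilast replicate 3 lay within the resting range.

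**Figure D4:**
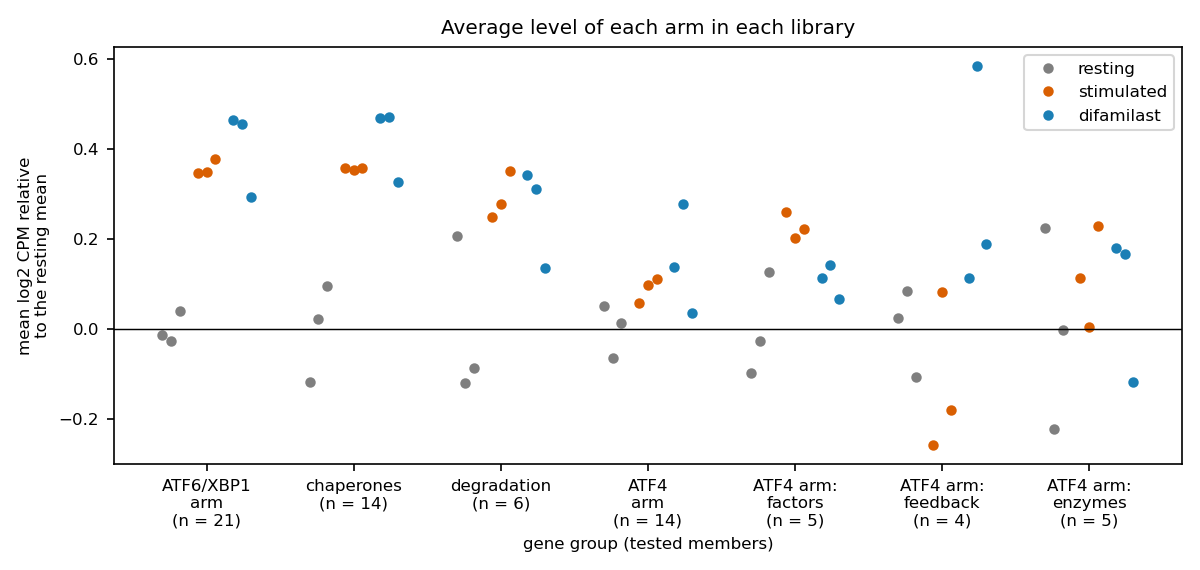
Mean log2 CPM of the tested genes of each arm and role relative to the resting mean (vertical axis), 1 point per library. The ATF6/XBP1 arm lies at -0.03 to 0.04 in resting and at 0.35 to 0.38 in stimulated libraries. The ATF4 arm lies at -0.06 to 0.05 in resting and at 0.06 to 0.11 in stimulated libraries, also without overlap. It reaches 0.28 with difamilast.

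Between stimulated cells with and without difamilast few of these genes differed: 3 rose, 1 fell and 35 were not called. The share called was 10.3%, against 3.44% of all tested genes; 7.69% rose against 2.21%, and 2.56% fell against 1.24%. Among genes of at least 10 CPM, 4.38% rose and 2.36% fell. The median log2 fold change was 0.07 over the members and -0.0029 over all tested genes. The difamilast and stimulated libraries did not overlap for 12 members, of which 4 were called. Here too the count over all tested genes was not made. This comparison and the first share the stimulated libraries, so their values are given side by side and not as separate evidence. None of the 4 calls held in all 17 alternatives.

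Pdia4 was at 316, 299 and 266 CPM in difamilast libraries, all above the stimulated libraries given earlier. The log2 fold change was 0.42 (adjusted p = 0.0218, SE 0.10). The call was lost without stimulated replicate 1 (adjusted p = 0.0918), stimulated replicate 2 (0.122), stimulated replicate 3 (0.126), difamilast replicate 1 (0.136) or difamilast replicate 2 (0.129), in a range from 0.000566 to 0.136. Ern1 was at 171, 176 and 156 CPM, again above every stimulated library, with a log2 fold change of 0.52 (adjusted p = 0.00636, SE 0.10). It had the smallest adjusted p of the members in this comparison, and its call was lost without stimulated replicate 1 (adjusted p = 0.0583), stimulated replicate 2 (0.0644) or difamilast replicate 2 (0.0603), in a range from 2.45e-05 to 0.0644.

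Trib3, lower in stimulated than in resting cells, was higher with difamilast. Its levels were 6.06, 7.6 and 4.03 CPM, all above the stimulated libraries and widely spread, with difamilast replicate 2 within the resting range and replicate 3 closest to the stimulated group. The log2 fold change was 0.92 (adjusted p = 0.0427, SE 0.23). The call was lost after thinning to an equal library total (adjusted p = 0.0779) and without stimulated replicate 1 (0.17), stimulated replicate 2 (0.149), stimulated replicate 3 (0.124), difamilast replicate 1 (0.143) or difamilast replicate 2 (0.283), in a range from 0.00231 to 0.283.

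Herpud1, higher in stimulated than in resting cells, was lower with difamilast, at 86, 83.3 and 74.2 CPM. All difamilast libraries were below all stimulated ones and 2 of them lay within the resting range. The log2 fold change was -0.48 (adjusted p = 0.0481, SE 0.12), close to the threshold. The call was lost with RLE scaling (adjusted p = 0.0766) and without resting replicate 3 (0.058), with any stimulated library left out, replicate 1 (0.128), 2 (0.211) or 3 (0.187), and with any difamilast library left out, replicate 1 (0.126), 2 (0.165) or 3 (0.0979), in a range from 0.000975 to 0.211.

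Ppp1r15a was at 211, 207 and 188 CPM with difamilast. Its window held the cAMP response element shown above, and whether that element plays any part here was not tested. Each difamilast library was above each stimulated one, and the log2 fold change was 0.40 (adjusted p = 0.0688, SE 0.11), which did not pass. It passed with DESeq2 (adjusted p = 0.0211), limma-voom (0.0343), no filter on low counts (0.0254), the length trend removed (0.0278), thinning (0.0383), a fit of only the groups compared (0.00345), and without resting replicate 1 (0.00124) or difamilast replicate 3 (0.0469), in a range from 0.00124 to 0.273. Manf was at 109, 131 and 147 CPM, below every stimulated library but widely spread, with a log2 fold change of -0.39 (adjusted p = 0.391, SE 0.20). Manf was called lower in a fit of only the groups compared (adjusted p = 0.0226) and without resting replicate 1 (0.0153), in a range up to 0.794. Ddit3 was at 29.6, 33.7 and 42.9 CPM, also below every stimulated library, with a log2 fold change of -0.36 (adjusted p = 0.361, SE 0.18). Transcripts of 750 to 1000 bases, the class of Ddit3, deviated by a median of 0.28 on the log2 scale in difamilast replicate 3, the library in which Ddit3 was highest, and by -0.21 in difamilast replicate 1, in which it was lowest. With the length trend removed its log2 fold change was -0.21 (adjusted p = 0.416).

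Hspa5 was at 1203, 1186 and 1032 CPM with difamilast, where replicates 1 and 2 were above the stimulated group and replicate 3 within it, and its log2 fold change was 0.20 (adjusted p = 0.36, SE 0.10). Xbp1 showed the same arrangement at 439, 423 and 337 CPM, with a log2 fold change of 0.25 (adjusted p = 0.311, SE 0.11). Atf4 and Atf3 differed by 0.11 and 0.012 on the log2 scale, with overlapping groups. The 5 enzymes had log2 fold changes from -0.26 to 0.10, and none was called.

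**Figure D5:**
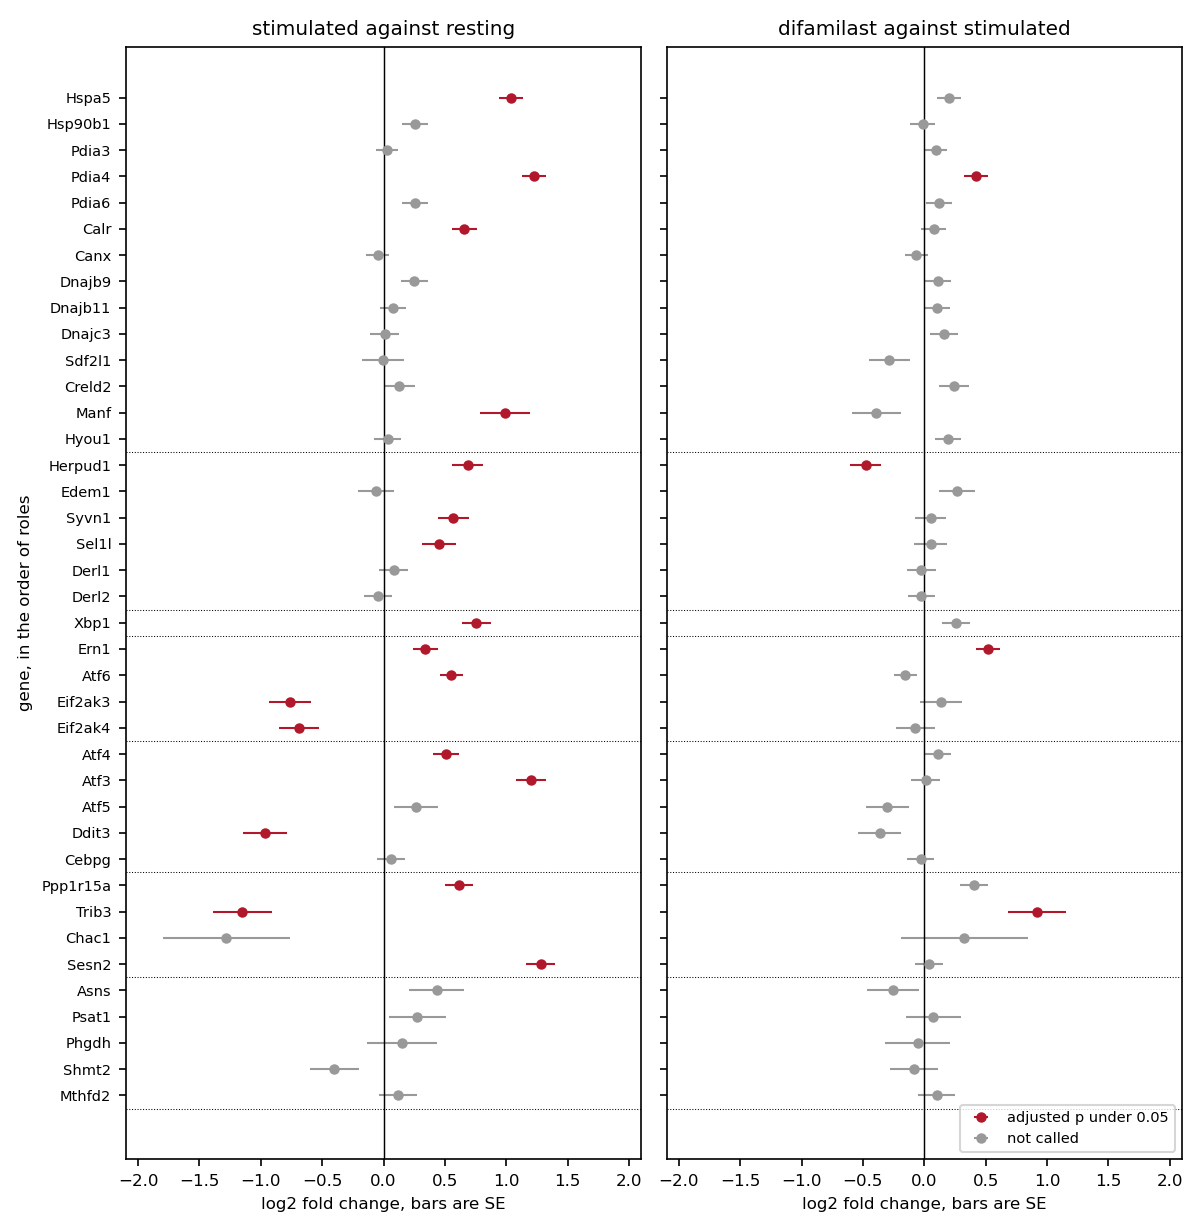
Log2 fold changes of the 39 tested members with bars of 1 SE, for stimulated against resting cells (left) and difamilast against stimulated cells (right), red where the adjusted p is under 0.05. On the left 18 genes are red, and on the right Pdia4, Herpud1, Ern1 and Trib3.

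Set against resting cells, cells with cytokines and difamilast had 16 members higher and 3 lower, 48.7% called against 32.8% of all tested genes. Of the members 41% rose against 16.4%, and 7.69% fell against 16.4%. The shares among genes of at least 10 CPM, the closer background, were not counted for this comparison. In the ATF6/XBP1 arm 10 of 21 rose and 0 fell, and in the ATF4 arm 4 of 14 rose and 1 fell. Pdia4 had the largest log2 fold change of the members, 1.65 (adjusted p = 6.44e-09, SE 0.10), and that of Hspa5 was 1.24 (adjusted p = 1.54e-07). Pdia6 (0.37, adjusted p = 0.0145), Dnajb9 (0.36, 0.0195) and Creld2 (0.37, 0.0322) were called here and not in stimulated against resting cells, with values there of 0.26, 0.25 and 0.13. Herpud1 (0.21, 0.234) and Trib3 (-0.23, 0.478) were called in stimulated against resting cells and not here. A call in one comparison and its absence in the other do not show a difference between stimulated and difamilast cells, whose test is given above. Calls of this comparison were lost for Pdia6 and Dnajb9 without resting replicate 2 (0.0664 and 0.063), difamilast replicate 1 (0.0723 and 0.0599) or 2 (0.0674 and 0.0686). Creld2 was lost in a fit of only the groups compared (0.0701) and without resting replicate 1 (0.0781), 2 (0.0753) or 3 (0.0556), with stimulated replicate 1 left out (0.0696) and with difamilast replicate 1 left out (0.168). Manf was lost in a fit of only the groups compared (0.0767) and without stimulated replicate 1 (0.063), difamilast replicate 2 (0.0781) or 3 (0.11), and its log2 fold change of 0.60 was 0.30 without resting replicate 1. Sel1l was lost without resting replicate 2 (0.0577) or 3 (0.0729, with 0.33 in place of 0.50). Other members were called against resting cells only with a library left out. Without resting replicate 1, Herpud1 (log2 fold change 0.33, adjusted p = 0.0116, range 0.0116 to 0.759), Edem1 (0.37 in place of 0.20, 0.0116, up to 0.805) and Psat1 (0.73 in place of 0.35, 0.00469, up to 0.749) were called higher and Sdf2l1 (-0.52 in place of -0.29, 0.00258, up to 0.496) lower. Shmt2, at -0.48 with all libraries, was called lower without resting replicate 2 (-0.67, adjusted p = 0.0253) or difamilast replicate 1 (-0.64, 0.0454), in a range up to 0.242.

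Other genes of the same pathways, from lists chosen by function, were counted in the same fit, and values in brackets are log2 fold changes. Under stimulation 15.3% of all tested genes rose and 16.4% fell, and 21.5% and 24.3% of genes of at least 10 CPM. With difamilast these shares were 2.21% and 1.24%, and 4.38% and 2.36%. No list was tested as a set, and a count near these shares is no result about its list. With difamilast the only called gene of its list was Edem2 among 17 degradation genes, Creb3l2 among 14 regulators and Vars among 20 synthetases. The drug had 0 calls in the lists of translocation (22 genes), COPII and Golgi transport (22), folding and redox (20) and eIF2 (14). Cytosolic heat shock genes (17) and mitochondrial chaperones and proteases (11) also had 0 calls with it. Of 20 other ER folding and redox genes 2 rose and 4 fell, with a median log2 fold change of -0.06. The oxidase Ero1l, which supplies disulfides to the isomerases, rose from a mean of 656 to 1211 CPM (log2 fold change 0.89 ± 0.10 (SE), adjusted p = 7.02e-06), and Cnpy3, a Toll-like receptor chaperone, fell (-0.51 ± 0.12 (SE), adjusted p = 0.00445). Of 17 other degradation genes 2 rose and 3 fell. Edem2, a mannosidase that marks glycoproteins for degradation, fell from 207 to 60.4 CPM (-1.77 ± 0.12 (SE), adjusted p = 2.46e-08) and was higher with difamilast than without it, at 94.1 CPM (0.64 ± 0.12 (SE), adjusted p = 0.00497), while the lectin Os9 fell (-0.52 ± 0.10 (SE), adjusted p = 0.000766).

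Of 14 other ER stress regulators 4 rose and 2 fell; Tmbim6, a membrane protein that restrains cell death, rose from 519 to 1033 CPM (0.99 ± 0.12 (SE), adjusted p = 9.3e-06) and Crebrf fell (-0.90 ± 0.10 (SE), adjusted p = 4.62e-06). Creb3l2, an ER-bound transcription factor of the CREB3 family, was higher with difamilast, at 104 against 58.1 CPM (0.84 ± 0.12 (SE), adjusted p = 0.00049). Of 22 genes of translocation and signal peptide processing 5 rose and 0 fell, among them the signal recognition particle subunit Srp19 (0.77 ± 0.17 (SE), adjusted p = 0.00338) and its receptor Srpr (0.58 ± 0.11 (SE), adjusted p = 0.000569).

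Beyond the ATF4 arm itself, 25 other ATF4 target genes were tested, and 5 rose and 5 fell with stimulation, with a median log2 fold change of 0.02. The arginine and lysine carrier Slc7a1 rose from 20.1 to 58.6 CPM (1.54 ± 0.13 (SE), adjusted p = 2.13e-07), and the glycine carrier Slc6a9 fell from 108 to 12.2 CPM (-3.16 ± 0.18 (SE), adjusted p = 2.84e-09). With difamilast 3 rose and 0 fell, among them the cystine carrier Slc7a11, at 294 against 176 CPM (0.74 ± 0.10 (SE), adjusted p = 0.000324). Of 20 cytosolic aminoacyl-tRNA synthetases 3 rose and 3 fell, and the smallest adjusted p-values were those of Wars (0.99 ± 0.13 (SE), adjusted p = 2.29e-05) and Eprs (-0.69 ± 0.11 (SE), adjusted p = 0.00014), and Vars was lower with difamilast (-0.76 ± 0.19 (SE), adjusted p = 0.0398). The call of Vars was lost after thinning (adjusted p = 0.248) and when any 1 of the stimulated (0.109, 0.0728 and 0.23 for replicates 1 to 3) or difamilast libraries (0.164, 0.164 and 0.0606) was left out, in a range from 0.00103 to 0.248 over its alternatives. Of 14 other genes of eIF2 and its kinases 3 rose and 3 fell: Eif2ak2, the double-stranded RNA sensor PKR, rose from 31.9 to 85.2 CPM (1.41 ± 0.15 (SE), adjusted p = 3.39e-06), and Impact, an inhibitor of GCN2 activation, fell from 82.5 to 26.4 CPM (-1.64 ± 0.11 (SE), adjusted p = 1.56e-08).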

How the data were processed

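The deposited values are raw read counts per gene symbol of 9 libraries, made by the authors. Tools named in the submitters' processing notes are Bowtie2 2.4.5 and cutadapt 4.1, with the build GRCm38 and no roles. For the counter, its annotation and its strand setting, the entry is "not given in the sources used here". Per the labels' protocols, polyadenylated RNA was copied to cDNA and amplified before fragmentation, so a library's yield may depend on transcript length. Counts were tested with edgeR 4.0.16 (R 4.3.3): TMM scaling, filterByExpr (minimum count 10, minimum total 15), 1 quasi-likelihood fit over the 9 libraries (6 residual degrees of freedom), Benjamini-Hochberg over 21341 tested genes, called at 0.05. Levels are TMM-scaled CPM. The steps were tested on simulated counts. Results were recomputed with limma-voom (limma 3.58.1), DESeq2 1.42.0, RLE scaling, genes of low counts kept, the replicate number as a block, only the groups compared, a lowess length trend (span 0.3) removed, 1 thinning to the shallowest total, and each library left out. Members and lists were chosen with earlier results of these data known. All 40 members are named, with up to 2 called genes of each related list for stimulation and 1 for difamilast. Positions and lengths come from GENCODE vM21 (GRCm38). Protein sequences were not used here.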

Additional observations from a re-analysis of the deposited data

How the results depend on the processing

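Each comparison was recomputed under 17 alternatives. All of these used scaling factors for composition, and no fit on library totals alone was run. Of the 18 members called in stimulated against resting cells 16 held their call and direction in all of them, and 5 others were called in at least 1; for difamilast against stimulated cells the counts were 0 of 4 and 2, and for difamilast against resting cells 14 of 19 and 5. No member changed sign in a comparison in which any fit called it; of the members never called in the comparison 11, 13 and 5 did. The median log2 fold change of the ATF6/XBP1 arm in stimulated against resting cells was 0.35 as a mean, 0.14 with DESeq2, 0.21 with RLE scaling, 0.16 with no filter and 0.13 to 0.26 with a library left out, and against resting cells with difamilast it was 0.40 as a mean; that of the ATF4 arm was 0.079 as a mean, 0.29 after thinning and 0.053 to 0.29 with a library left out. The count rising with difamilast was 0 to 4 with a library left out, and the count falling was 0 to 2, 0 with RLE scaling and 2 with only the groups compared. The replicate numbers did not pair the libraries: deviations of same-numbered libraries correlated from -0.40 to 0.42. With the replicate block the count falling with difamilast was 0 (Herpud1, adjusted p = 0.052), Trib3 was lost (0.0603), Chac1 was called lower in stimulated cells (log2 fold change -1.39, adjusted p = 0.027), and Sdf2l1 was 0.0068.

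Signs changed in members near 0, and the cause was not tested. In stimulated against resting cells Pdia3, Dnajc3 and Hyou1 were -0.023, -0.0396 and -0.015 with DESeq2 and -0.019, -0.036 and -0.012 with RLE scaling, Dnajc3 was -0.017 with no filter, and Sdf2l1 was 0.056 with limma-voom. For difamilast against stimulated cells Hsp90b1 was 0.0056 with DESeq2, 0.0047 with RLE scaling and 0.012 with no filter, Derl1 was 0.0017 with no filter, Sel1l was -0.013 with the length trend removed, and Derl2 and Eif2ak4 were 0.052 and 0.10 after thinning. For difamilast against resting cells Atf5 was 0.0052 with limma-voom and 0.17 after thinning. With a library left out, stimulated against resting values ran for Pdia3 from -0.032 to 0.044, Canx -0.12 to 0.0016, Dnajb11 -0.013 to 0.087, Dnajc3 -0.072 to 0.034, Sdf2l1 -0.24 to 0.11, Hyou1 -0.0697 to 0.043, Edem1 -0.20 to 0.11, Derl1 -0.027 to 0.12, Derl2 -0.15 to 0.021, Cebpg -0.072 to 0.086 and Phgdh -0.057 to 0.29. Difamilast against stimulated values ran for Hsp90b1 from -0.032 to 0.028, Syvn1 -0.0101 to 0.14, Derl1 -0.087 to 0.059, Atf3 -0.063 to 0.10, Cebpg -0.062 to 0.026, Chac1 -0.057 to 0.93, Sesn2 -0.0059 to 0.11, Psat1 -0.065 to 0.18, Phgdh -0.22 to 0.16 and Shmt2 -0.23 to 0.065. Difamilast against resting values ran for Derl1 from -0.0504 to 0.14, Atf5 -0.25 to 0.092, Cebpg -0.10 to 0.094, Asns -0.051 to 0.33 and Phgdh -0.013 to 0.20. On the strand of the gene alone the ER stress element was in 31.6% of ATF6/XBP1 windows in place of 47.4%, and the amino acid response element in 7.14% of ATF4 arm windows in place of 28.6%. Of the 28 results named from the related lists, Vars, Grpel1 and Gadd45b (with difamilast) lost their call in some alternative, and none changed sign. The lowest members in depth were Derl3, with 1 to 13 counts per library and not tested, and Chac1, with 4 to 41.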

Other observations

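Lists next to the ER stress pathways were measured in the same fit. The shares of all tested genes and of genes of at least 10 CPM, given with the first list, are the background for every list. None of the lists was tested as a set. All 8 tested CHOP-linked cell death genes were called under stimulation, 6 higher and 2 lower, against 15.3% higher and 16.4% lower of all tested genes and 21.5% and 24.3% of genes of at least 10 CPM, while Ddit3 itself was lower. Gadd45b rose from a mean of 79.1 to 615 CPM (log2 fold change 2.96 ± 0.16 (SE), adjusted p = 1.93e-09) and Gadd45a from 113 to 235 CPM (1.06 ± 0.11 (SE), adjusted p = 4.01e-06); both also answer to other signals. Bcl2l11, which encodes BIM, was higher with difamilast than without it, at 564 against 341 CPM (0.73 ± 0.095 (SE), adjusted p = 0.000267). Gadd45b, the 1 gene of the list called lower with the drug and named after its values were seen, was at 399.7 CPM with difamilast (-0.62 ± 0.15 (SE), adjusted p = 0.0284). That call was lost without stimulated replicate 1 (adjusted p = 0.117), 2 (0.151) or 3 (0.0803) and without difamilast replicate 1 (0.181) or 2 (0.178), in a range from 8.52e-05 to 0.181 over its alternatives.

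Of 17 cytosolic heat shock genes 6 rose and 1 fell with stimulation, with a median log2 fold change of 0.01; Hsp90aa1 rose from 167 to 342 CPM (1.03 ± 0.18 (SE), adjusted p = 0.000482) and its cochaperone Stip1 rose as well (0.64 ± 0.10 (SE), adjusted p = 0.000179). Of 11 mitochondrial chaperones and proteases 1 rose, Grpel1 (0.53 ± 0.16 (SE), adjusted p = 0.0168; 0.30 without resting replicate 1, and not called without stimulated replicate 1, adjusted p = 0.0847, the highest of its alternatives), and 1 fell, Trap1 (-0.55 ± 0.13 (SE), adjusted p = 0.00578). Of 22 genes of COPII and Golgi transport 3 rose and 4 fell, among them the coat subunits Sec24d (-1.22 ± 0.25 (SE), adjusted p = 0.00183) and Sec31a (-0.66 ± 0.12 (SE), adjusted p = 0.000788), which fell.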
